A study of Mus musculus with 19 samples.

Results

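Genes of the brain endothelium and the blood-brain barrier were followed in the hippocampus of mice of 2 genotypes on 2 diets. The set was a list of 31 gene symbols, and a gene was read from the probe set annotated with its symbol alone (the one with the highest mean over all 19 arrays where several exist). Such a probe set was found for 30 of the 31 genes, out of 19938 genes measured in this way. The remaining gene, Ly6c1, was skipped because its 2 probe sets also list Ly6c2. Each of the 30 genes had 1 such probe set.

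The study asked how dietary ibuprofen, a drug that inhibits cyclooxygenases, alters hippocampal gene expression in a mouse model of amyloid plaques. The model was APPSwe-PS1deltaE9 (APP-PS1), which carries an amyloid precursor protein with the Swedish mutation and a presenilin that lacks an exon, on the C57BL/6J strain; its wild-type littermates served as controls. Chow with ibuprofen at 375 ppm, or the same chow without it, was given from 3 months of age, and hippocampal RNA was taken at 6 months and measured on 1-colour Affymetrix arrays. There were 4 arrays of wild-type mice on control chow and 5 each of wild-type mice on ibuprofen chow, APP-PS1 mice on control chow and APP-PS1 mice on ibuprofen chow. Sex, litter and hybridization batch were not in the labels used here. Nothing beyond the sample titles says that the replicates are separate animals, so p-values measure the spread between these samples.

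The blood-brain barrier is formed by capillary endothelial cells whose membranes are sealed to each other by tight junctions and which carry few transport vesicles. Nutrients cross it on dedicated carriers, efflux pumps return drugs and waste to the blood, and Wnt signals from glia and neurons keep the endothelium in the barrier state. Endothelial identity rests on ETS and SOX transcription factors, while vascular endothelial growth factor (VEGF) and angiopoietin receptors control vessel growth and stability.

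Promoter sequences are shown to let the starts of these genes be compared by their ETS cores, since Erg, itself in the set, belongs to the ETS family, which acts at many endothelial promoters. RefSeq promoters on the mouse build GRCm38.p6 were matched to 21 of the 30 genes. The letters AGGAAG, a core that ETS factors bind, or their reverse complement CTTCCT were present in the 250 bases before the start of 12 of the 21 genes, against 29.2% of 27025 genes with a promoter of that length. The 12 were Abcb1a, Abcg2, Apold1, Egfl7, Emcn, Eng, Flt1, Itm2a, Robo4, Slco1a4, Slco1c1 and Tie1. A SOX motif, ACAATG on either strand, was found in 2 of the 21 (Abcg2 and Slco1a4), against 2969 of the 27025 genes, and the TCF/LEF motif of Wnt signalling, CTTTGAT on either strand, in 1 (Egfl7), against 3.23%. A match describes letters and not a bound site. None of these 3 motifs contains another.
The 4 promoters below are those of Egfl7, with 3 ETS cores, Flt1, with 2, Slco1a4, with 1, and the defining tight junction gene Cldn5, with 0. Each run is given 5′ to 3′ on the strand of its gene and ends at the base before the start, with AGGAAG or CTTCCT in capitals. Egfl7 lies on the plus strand (chr2:26580833-26581082), Flt1 on the minus strand (chr5:147726012-147726261), Slco1a4 on the minus strand (chr6:141856221-141856470) and Cldn5 on the plus strand (chr16:18776597-18776846).
Egfl7: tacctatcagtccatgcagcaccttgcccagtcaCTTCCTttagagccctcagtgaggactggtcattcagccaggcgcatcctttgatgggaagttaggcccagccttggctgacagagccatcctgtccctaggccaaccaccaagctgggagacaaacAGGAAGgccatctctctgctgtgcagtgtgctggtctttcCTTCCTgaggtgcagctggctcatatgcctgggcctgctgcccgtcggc
Flt1: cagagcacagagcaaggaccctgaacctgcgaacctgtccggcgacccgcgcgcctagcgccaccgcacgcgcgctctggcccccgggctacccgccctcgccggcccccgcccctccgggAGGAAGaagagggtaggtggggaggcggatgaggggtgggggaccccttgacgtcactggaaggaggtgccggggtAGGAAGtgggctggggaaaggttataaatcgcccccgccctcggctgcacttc
Slco1a4: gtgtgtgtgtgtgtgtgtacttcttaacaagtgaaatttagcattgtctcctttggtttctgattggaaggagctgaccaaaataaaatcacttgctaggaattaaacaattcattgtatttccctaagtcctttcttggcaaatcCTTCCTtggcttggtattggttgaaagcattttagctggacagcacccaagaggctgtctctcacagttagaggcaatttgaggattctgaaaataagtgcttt
Cldn5: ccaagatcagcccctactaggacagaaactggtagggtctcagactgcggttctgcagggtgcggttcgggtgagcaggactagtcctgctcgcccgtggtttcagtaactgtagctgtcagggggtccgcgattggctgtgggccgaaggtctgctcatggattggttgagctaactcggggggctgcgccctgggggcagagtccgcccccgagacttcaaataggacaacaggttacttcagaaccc
The cores of Egfl7 began 49, 89 and 216 bases before the start and those of Flt1 53 and 129 bases before it, while the single core of Slco1a4 began at 104. The windows also differed in base composition, from 39.2% G and C in Slco1a4 to 70.4% in Flt1, against a median of 52.0% over all genes.

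All values are log2 levels per probe set. Array medians lay between 8.06 and 8.14, and pairs of arrays correlated at 0.980 to 0.999 over the 19938 genes. Replicates 5 and 1 of the wild-type ibuprofen group had the lowest median correlations with the other arrays, at 0.987 and 0.992, followed by replicate 4 of the APP-PS1 ibuprofen group at 0.9942 and replicate 1 of the APP-PS1 control group at 0.9943. An earlier look at these data had singled out 3 arrays, replicates 1 and 5 of the wild-type ibuprofen group and replicate 1 of the APP-PS1 control group, and results are also given without these 3 set-aside arrays. They are not the 3 with the lowest correlations, since APP-PS1 ibuprofen replicate 4 was kept. The genotype labels were checked on App, to which the transgene adds transcripts, whose mean was 13.20 and 13.25 in wild-type and 13.60 and 13.59 in APP-PS1 mice on control and ibuprofen chow, and on Prnp, whose promoter is used in this transgene, at 12.71 and 12.74 against 13.38 and 13.40. All APP-PS1 arrays lay above all wild-type arrays for both genes on each diet.

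The mean levels of the endothelial and barrier genes lay between percentiles 40.1 and 96.3 of all genes. No detection call was made, so whether the dimmest of them lie above background is not known. Their means over the 19 arrays ran from 8.05 for Erg to 11.99 for Slc2a1, and 21 of the 30 lay above the median gene. Between-gene differences on this scale also reflect the probes, so they are not read as differences in transcript number. Of 11 listed endothelial markers 10 were measured, the dimmest at a mean of 8.22, and Plvap, the diaphragm protein of leaky fenestrated vessels, had group means of 8.57, 8.63, 8.55 and 8.59 in the order of groups above.

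No gene of the set passed an adjusted p of 0.05 in any of 6 comparisons in a limma fit of all genes and arrays. This held for the 30 genes in genotype on control chow (0.0100% of all genes passed), genotype on ibuprofen chow (0.271%), ibuprofen in APP-PS1 mice (0%), ibuprofen in wild-type mice (0%), the interaction of genotype and diet (0%) and genotype averaged over both diets (0.0251%). At an unadjusted p under 0.05, 2 genes were higher and 0 lower in APP-PS1 mice on control chow, against 4.80% and 1.07% of all genes, and 0 were higher and 3 lower on ibuprofen chow, against 6.25% and 18.2%. For ibuprofen, 0 were higher and 0 lower in APP-PS1 mice (1.82% and 4.66% of all genes), and 3 were higher and 0 lower in wild-type mice (9.08% and 1.95%). The interaction was above 0 with such a p in 0 genes and below 0 in 4 (4.50% and 16.0% of all genes), and 0 genes had one in either direction for genotype averaged over both diets (2.34% higher and 5.36% lower). The share of the set, at most 13.3%, lay near that of all genes in the same direction. In 0 of the 30 genes did all arrays of a group lie above, or all below, those of the group compared. Over all genes this was so for 2.94% higher and 0.903% lower between genotypes on control chow, and for 0.231% and 2.06% on ibuprofen chow. For ibuprofen it was so for 0.507% and 2.27% in APP-PS1 and 1.94% and 0.301% in wild-type mice. In whole tissue, a lower level can come from fewer endothelial cells or from less RNA in each cell, and these cannot be told apart.

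On control chow, 29 of the 30 genes had a higher mean in APP-PS1 than in wild-type mice, against 57.9% of all genes, with a median difference of 0.11 against 0.02 over all genes. On ibuprofen chow, 7 of 30 were higher in APP-PS1 mice, against 37.8% of all genes, with a median of -0.05, which was also the median of all genes. In wild-type mice, 27 of 30 were higher on ibuprofen than on control chow, against 66.8% of all genes, with a median of 0.11 against 0.05. In APP-PS1 mice, 6 of 30 were higher on ibuprofen, against 41.8%, with a median of -0.06 against -0.02. The interaction, which is the ibuprofen difference in APP-PS1 mice minus that in wild-type mice, was above 0 in 0 of 30 genes, against 35.6% of all genes, with a median of -0.16 against -0.07. These comparisons share groups, and genes of 1 cell type vary together, so the counts are descriptions with no test. Beside them, 13 of 13 choroid plexus markers had a higher mean in APP-PS1 mice on control chow (median 0.52) and 13 of 13 on ibuprofen chow (median 0.66). On each diet, 0 of the 13 had an unadjusted p under 0.05 in limma. With their mean as a covariate, the set's median was 0.07 on control chow and -0.11 on ibuprofen chow, where that of all genes was -0.06. A link between the markers and the set's counts was not tested. Averaged over both diets, 19 of 30 genes were higher in APP-PS1 mice, against 45.1%, with a median of 0.01.

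Several of these counts moved without 1 array, replicate 5 of the wild-type ibuprofen group, and so did the shares of all genes. Without it, 18 of 30 genes were higher in APP-PS1 mice on ibuprofen chow (44.2% of all genes), 17 of 30 were higher on ibuprofen in wild-type mice (59.8% of all genes), and the interaction was above 0 in 7 of 30 (40.7% of all genes). The medians of those comparisons became 0.03, 0.01 and -0.09, and that of genotype averaged over both diets became 0.06, with 25 of 30 genes higher (52.0% of all genes). Over all genes these medians were -0.02, 0.02, -0.04 and 0.003. For ibuprofen in wild-type mice the median of the set was then below that of all genes. Without the 3 set-aside arrays the counts were 25 for genotype on control chow, 21 for genotype on ibuprofen chow, 10 for ibuprofen in APP-PS1 mice and 14 in wild-type mice, while the interaction was above 0 in 11. The shares of all genes were then 49.6%, 50.1%, 49.7%, 51.3% and 50.8%. The count for genotype on control chow stayed between 24 and 30 whichever single array was left out, and its median between 0.07 (without replicate 1 of the wild-type control group) and 0.18 (without replicate 2 of that group). The unadjusted count of 2 for genotype on control chow became 9 without that replicate 2, and 0 without replicate 3 or 4 of the wild-type control group or replicate 4 of the APP-PS1 control group. The counts of 3 for ibuprofen in wild-type mice and of 4 for the interaction became 9 and 8 without wild-type control replicate 2, and the first became 0 without replicate 1 or 4 of that group or wild-type ibuprofen replicate 5, the second 1 without APP-PS1 control replicate 1. For genotype on ibuprofen chow the count of 3 became 0 without wild-type ibuprofen replicate 5 and 5 without its replicate 2, where 2 of 30 genes were higher and the median was -0.09. The shares of all genes at an unadjusted p under 0.05 were not counted in these refits. The unadjusted counts without an array are therefore not read as results about the set. For ibuprofen in APP-PS1 mice, 2 of 30 genes were higher without APP-PS1 control replicate 2, with a median of -0.10, and 10 without its replicate 1 or 5.

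**Figure D1:**
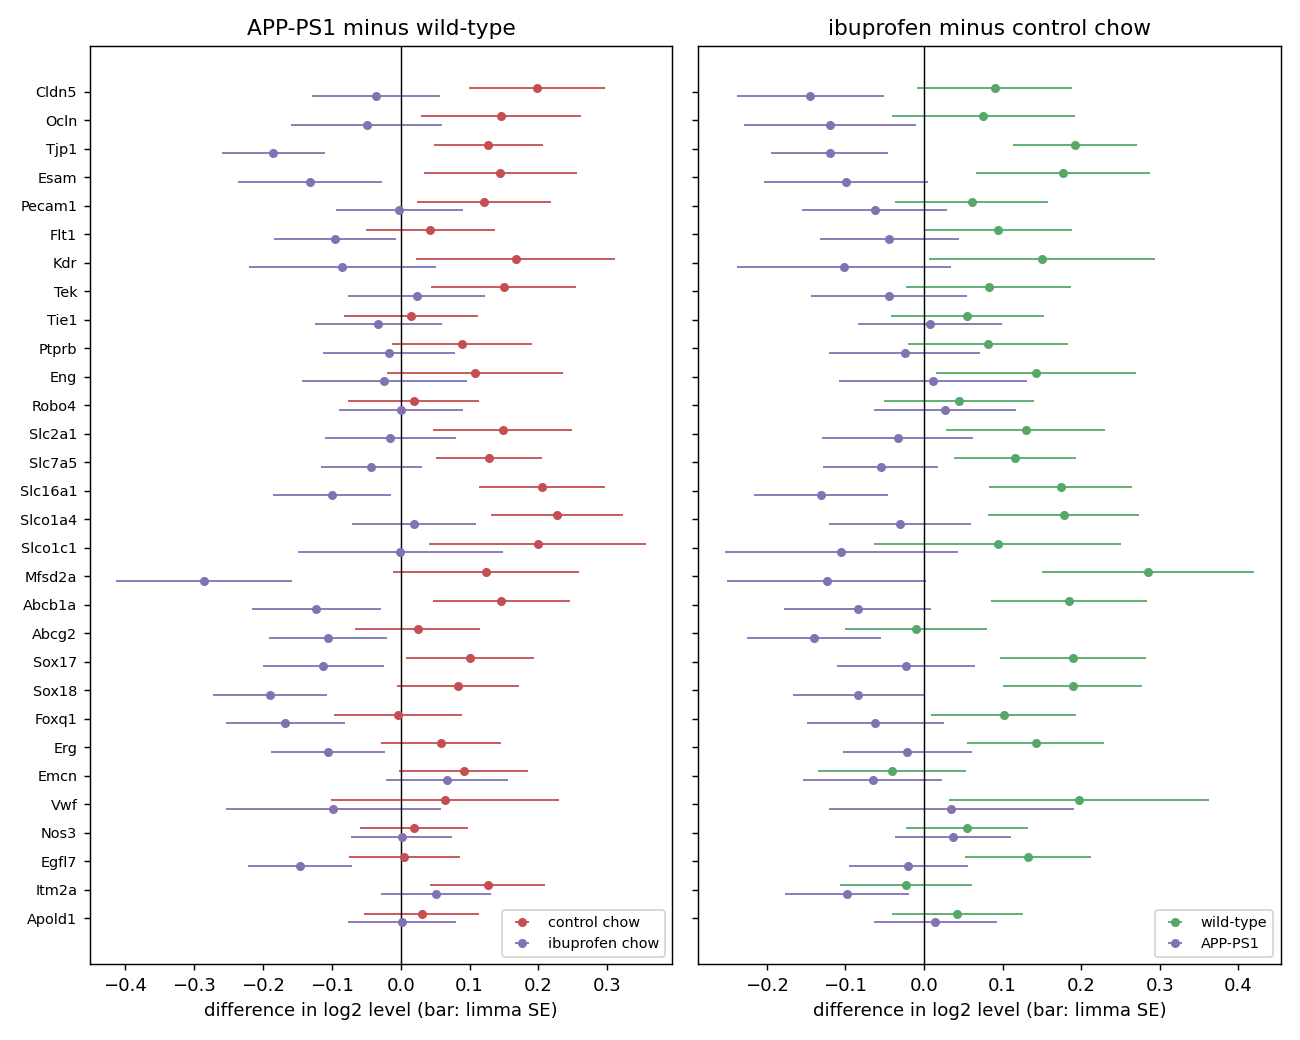
Difference in log2 level for each gene, with the limma SE as a bar, for APP-PS1 minus wild-type (left, red on control chow, violet on ibuprofen chow) and ibuprofen minus control chow (right, green in wild-type, violet in APP-PS1). On control chow 29 of 30 red points lie above 0, and 27 of 30 green points lie above 0, and no gene passed the adjusted test.

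Among the genes of junctions and adhesion, all 5 had a higher mean in APP-PS1 than in wild-type mice on control chow (median 0.14) and all 5 a lower mean on ibuprofen chow (median -0.05), and none passed the test. Cldn5 encodes the claudin that forms the tight junction strands of brain endothelium. Its levels were 10.81, 10.65, 10.32 and 10.59 in wild-type mice on control chow and 10.88, 10.61, 10.55, 10.47 and 10.91 on ibuprofen chow. In APP-PS1 mice they were 10.97, 10.61, 10.90, 10.81 and 10.65 on control chow and 10.61, 10.57, 10.59, 10.72 and 10.72 on ibuprofen chow. The APP-PS1 control arrays all lay above the wild-type control mean, but replicate 1 of the wild-type control group was higher than 2 of them, so the groups overlapped. The mean and SD were 10.59 ± 0.20 (n = 4) and 10.68 ± 0.20 (n = 5) in wild-type mice and, with 5 arrays each, 10.79 ± 0.15 and 10.64 ± 0.07 in APP-PS1 mice. The genotype difference on control chow was 0.20 ± 0.10 (SE), with a 95% interval of -0.01 to 0.40 and an adjusted p of 0.851 in limma. It was 0.11 without wild-type control replicate 3, the lowest array, and -0.04 ± 0.09 on ibuprofen chow, a value that turned to 0.02 without wild-type ibuprofen replicate 5 and to 0.11 without the 3 set-aside arrays.

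Tjp1, which encodes the scaffold that ties claudins and occludin to actin, had the smallest p of the set. Its levels were 10.57, 10.82, 10.66 and 10.63 in wild-type mice on control chow and 10.86, 10.75, 10.84, 10.70 and 11.14 on ibuprofen chow. Levels in APP-PS1 mice were 11.0001, 10.74, 10.75, 10.65 and 10.83 on control chow and 10.64, 10.72, 10.71, 10.59 and 10.73 on ibuprofen chow. The highest values were those of wild-type ibuprofen replicate 5 and APP-PS1 control replicate 1, 2 of the 3 set-aside arrays, and all groups overlapped. The difference between ibuprofen and control chow was 0.19 ± 0.08 in wild-type mice (adjusted p = 0.432) and -0.12 ± 0.07 in APP-PS1 mice (adjusted p = 0.716). They became 0.12 without wild-type ibuprofen replicate 5 and -0.07 without APP-PS1 control replicate 1. The interaction of -0.31 ± 0.11 had a p of 0.00876 and an adjusted p of 0.208 in limma, and it was -0.24 without wild-type ibuprofen replicate 5 and -0.17 without the 3 set-aside arrays. On ibuprofen chow Tjp1 was -0.19 ± 0.07 in APP-PS1 relative to wild-type mice (adjusted p = 0.160) and -0.11 without wild-type ibuprofen replicate 5. All 5 APP-PS1 arrays lay below the wild-type mean there.

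The other 3 junction genes had no p under 0.05. Ocln, the gene of occludin, differed by 0.15 ± 0.12 between genotypes on control chow and -0.05 ± 0.11 on ibuprofen chow. Esam, an adhesion molecule of endothelial tight junctions, differed by 0.14 ± 0.11 and -0.13 ± 0.10, and its highest value was the 9.41 of wild-type ibuprofen replicate 5. Pecam1, the adhesion molecule between endothelial cells that is widely used to stain vessels, differed by 0.12 ± 0.10 and -0.00 ± 0.09.

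All 7 receptors of growth factors and guidance cues had a higher mean in APP-PS1 mice on control chow (median 0.09), as did 2 of 7 on ibuprofen chow (median -0.02), with no p under 0.05. Flt1 and Kdr encode the VEGF receptors, the first of which mostly traps the ligand and the second of which carries its signal. Kdr had the widest spread of the receptors, with levels of 8.32, 8.45, 8.17 and 8.15 in wild-type mice on control chow and 8.52, 8.04, 8.36, 8.12 and 9.08 on ibuprofen chow. The APP-PS1 arrays read 8.63, 8.25, 8.59, 8.36 and 8.37 on control chow and 8.31, 8.23, 8.44, 8.28 and 8.43 on ibuprofen chow. The value of 9.08 in wild-type ibuprofen replicate 5 stood above all others, and the group mean there was 8.42 ± 0.41 (SD, n = 5). Its genotype difference was 0.17 ± 0.14 on control and -0.09 ± 0.14 on ibuprofen chow, against 0.04 ± 0.09 and -0.10 ± 0.09 for Flt1.

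Tek, the angiopoietin receptor, differed by 0.15 ± 0.11 on control and 0.02 ± 0.10 on ibuprofen chow, and its partner Tie1 by 0.01 ± 0.10 and -0.03 ± 0.09. Ptprb, the phosphatase that restrains Tek, differed by 0.09 ± 0.10 and -0.02 ± 0.10. Eng, a co-receptor for ligands of the transforming growth factor beta family, differed by 0.11 ± 0.13 and -0.02 ± 0.12, and Robo4, a guidance receptor that stabilizes vessels, by 0.02 ± 0.10 and 0.00 ± 0.09. The differences of Tie1 and Robo4 were the closest to 0 among the receptors on control chow.

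The transporters held the largest genotype differences of the set. All 8 had a higher mean in APP-PS1 than in wild-type mice on control chow, with a median of 0.15 and a range of 0.02 to 0.23. The 2 genes with an unadjusted p under 0.05 there, Slco1a4 and Slc16a1, were both transporters and both higher in APP-PS1 mice (6.67% of the set, against 4.80% of all genes in that direction), and neither passed the adjusted test.

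Slco1a4 encodes a carrier of organic anions at the barrier. Its levels were 9.76, 9.93, 9.44 and 9.63 in wild-type mice on control chow and 9.83, 9.56, 9.95, 9.89 and 10.11 on ibuprofen chow. In APP-PS1 mice they were 9.85, 9.79, 9.94, 9.98 and 10.04 on control chow and 10.00, 9.82, 9.92, 9.82 and 9.88 on ibuprofen chow. On control chow the lowest 3 arrays were wild-type and wild-type replicate 2 fell among the APP-PS1 arrays. The difference there was 0.23 ± 0.10, or 1.17-fold (adjusted p = 0.808 in limma), and that on ibuprofen chow was 0.02 ± 0.09. The first was 0.14 without wild-type control replicate 3, the lowest array, and 0.31 without replicate 2.

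Slc16a1 encodes the carrier of lactate and ketone bodies. Its levels were 10.14, 10.21, 10.06 and 9.91 in wild-type mice on control chow and 10.49, 10.11, 10.29, 10.01 and 10.37 on ibuprofen chow. In APP-PS1 mice they were 10.53, 10.22, 10.22, 10.30 and 10.16 on control chow and 10.23, 10.22, 10.03, 10.09 and 10.20 on ibuprofen chow. The highest array of the APP-PS1 control group was its replicate 1 and that of the wild-type ibuprofen group its replicate 1, both among the 3 set-aside arrays. The genotype difference on control chow was 0.21 ± 0.09 (adjusted p = 0.821) and the interaction was -0.30 ± 0.13 (adjusted p = 0.214), which became -0.13 without the 3 set-aside arrays. Oligodendrocytes also carry this transporter. Of 11 oligodendrocyte markers, 9 had a higher mean in APP-PS1 mice on control chow (median 0.19), against 57.9% of all genes. Their interaction was above 0 in 0 of 11 (median -0.18), against 35.6% of all genes. With the mean of those markers as a covariate, the median differences of the set were 0.09 for genotype on control chow and -0.14 for the interaction. Over all genes they were 0.02 and -0.06 in that fit. At an unadjusted p under 0.05 in limma the set held 0 and 1 genes, and the shares of all genes were not counted there. Those counts are not read as results about the set. A part of oligodendrocytes in the differences of Slc16a1 or of the set was not tested.

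Mfsd2a carries lysophosphatidylcholine with docosahexaenoic acid into the brain and restrains vesicle transport across the endothelium. Its levels were 10.36, 10.75, 10.46 and 10.60 in wild-type mice on control chow and 10.61, 10.77, 10.68, 10.93 and 11.16 on ibuprofen chow. Levels in APP-PS1 mice were 10.98, 10.48, 10.54, 10.57 and 10.77 on control chow and 10.26, 10.70, 10.96, 10.28 and 10.52 on ibuprofen chow. All 5 wild-type arrays on ibuprofen chow lay above the wild-type control mean, and the APP-PS1 ibuprofen arrays ran from 10.26 to 10.96 and overlapped both. Mfsd2a was -0.29 ± 0.13 in APP-PS1 relative to wild-type mice on ibuprofen chow (adjusted p = 0.183), 0.29 ± 0.13 for the diet in wild-type mice (adjusted p = 0.432) and -0.41 ± 0.19 for the interaction (adjusted p = 0.229). These were -0.20, 0.20 and -0.33 without wild-type ibuprofen replicate 5.

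Slc7a5, a subunit of the carrier of large neutral amino acids, was named because its p was among the 4 smallest on control chow. It measured 11.36, 11.73, 11.65 and 11.62 in wild-type mice on control chow and 11.61, 11.66, 11.62, 11.71 and 11.92 on ibuprofen chow. In APP-PS1 mice it measured 11.88, 11.67, 11.56, 11.73 and 11.75 on control chow and 11.59, 11.77, 11.79, 11.58 and 11.58 on ibuprofen chow. The lowest array of all was wild-type control replicate 1, and the groups overlapped. The difference between genotypes was 0.13 ± 0.08 on control chow (adjusted p = 0.911) and -0.04 ± 0.07 on ibuprofen chow. Without wild-type control replicate 1 it was 0.05 on control chow.

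Abcg2, an efflux pump for drugs and urate, measured 8.34, 8.67, 8.35 and 8.20 in wild-type mice on control chow and 8.39, 8.30, 8.40, 8.36 and 8.47 on ibuprofen chow. The APP-PS1 arrays read 8.17, 8.32, 8.42, 8.59 and 8.59 on control chow and 8.26, 8.31, 8.35, 8.21 and 8.26 on ibuprofen chow. APP-PS1 control replicates 3, 4 and 5 were above every APP-PS1 ibuprofen array and replicate 1 below all of them. The difference between ibuprofen and control chow was -0.14 ± 0.09 in APP-PS1 mice (adjusted p = 0.716), the smallest p of the set in that comparison, and it was -0.20 without APP-PS1 control replicate 1.

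Of the other transporters, Slc2a1, the glucose carrier of the barrier and the brightest gene of the set, differed by 0.15 ± 0.10 between genotypes on control chow and -0.01 ± 0.10 on ibuprofen chow. Abcb1a, the P-glycoprotein efflux pump, differed by 0.15 ± 0.10 and -0.12 ± 0.09, and its interaction was -0.27 ± 0.14 (adjusted p = 0.258). Slco1c1, the thyroxine carrier, differed by 0.20 ± 0.16 and -0.00 ± 0.15. The upper end of its 95% interval for genotype on control chow, 0.53 or 1.44-fold, was the highest of the set.

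**Figure D2:**
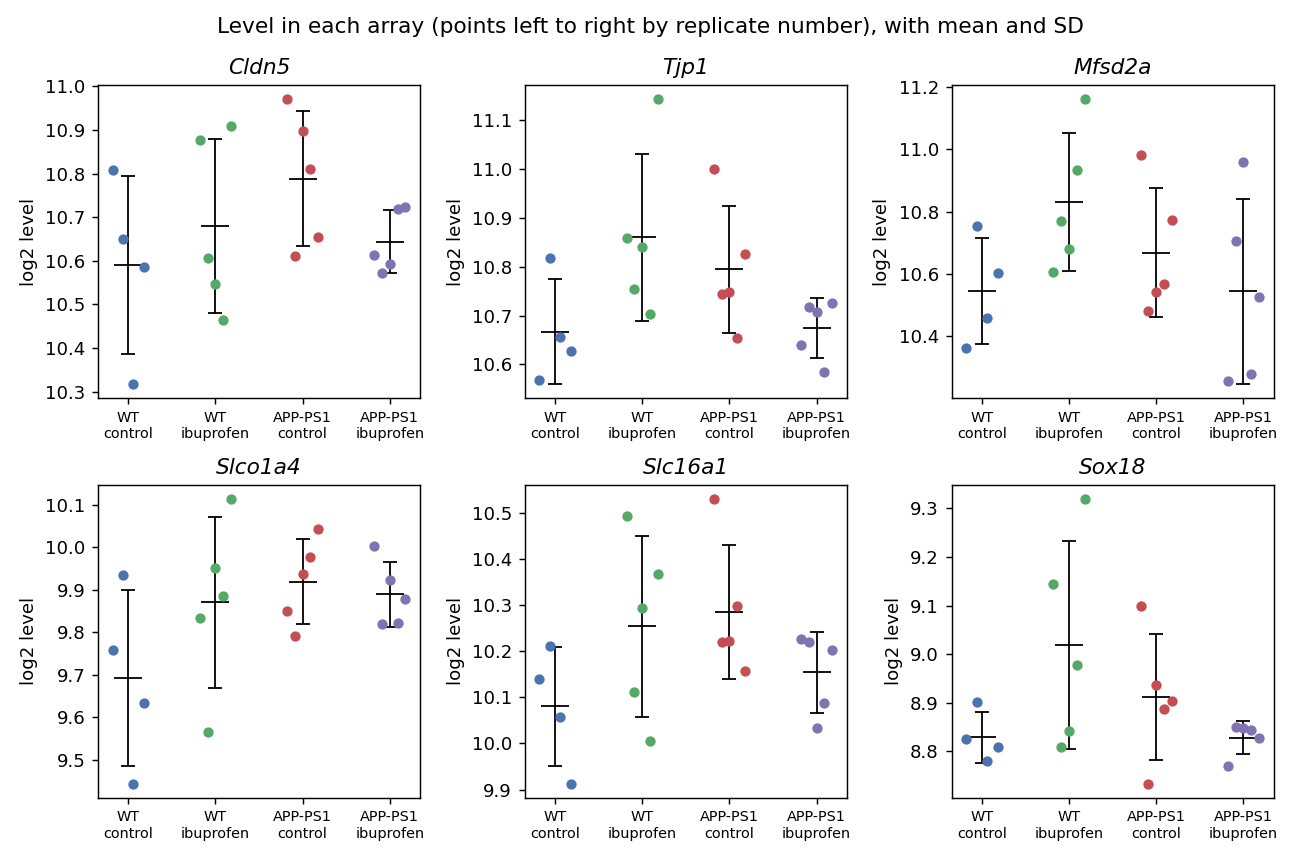
Log2 level of Cldn5, Tjp1, Mfsd2a, Slco1a4, Slc16a1 and Sox18 in each array, by group, with the group mean and SD as bars; the vertical axes do not start at 0. Wild-type control points lie lowest on average for Slco1a4, Slc16a1 and Cldn5, and every panel shows overlapping groups.

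All 4 transcription factors had a lower mean in APP-PS1 than in wild-type mice on ibuprofen chow (median -0.14, range -0.19 to -0.11). Of all genes, 37.8% were higher there. On control chow 3 of 4 had a higher mean (median 0.07), against 57.9% of all genes. None passed the test on either diet. Sox18 and Sox17 are SRY-related factors of endothelial and arterial identity. Sox18 measured 8.83, 8.90, 8.78 and 8.81 in wild-type mice on control chow and 9.14, 8.81, 8.84, 8.98 and 9.32 on ibuprofen chow. In APP-PS1 mice it measured 9.10, 8.73, 8.94, 8.89 and 8.90 on control chow and 8.77, 8.85, 8.85, 8.84 and 8.83 on ibuprofen chow. The APP-PS1 ibuprofen arrays lay between 8.77 and 8.85, and wild-type ibuprofen replicates 5 and 1, both set-aside arrays, were the highest of all. Sox18 was -0.19 ± 0.08 in APP-PS1 relative to wild-type mice on ibuprofen chow (adjusted p = 0.180), -0.11 without wild-type ibuprofen replicate 5 and -0.05 without the 3 set-aside arrays. Its interaction was -0.27 ± 0.12 with them (adjusted p = 0.224) and -0.08 without.

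Sox17 followed the same arrays, at 7.92, 8.19, 8.03 and 7.96 in wild-type mice on control chow and 8.33, 8.04, 8.06, 8.08 and 8.56 on ibuprofen chow. The APP-PS1 arrays read 8.14, 7.97, 8.13, 8.17 and 8.21 on control chow and 8.06, 8.09, 8.05, 8.15 and 8.15 on ibuprofen chow. Its ibuprofen difference in wild-type mice was 0.19 ± 0.09 (adjusted p = 0.432), 0.10 without wild-type ibuprofen replicate 5 and 0.04 without the 3 set-aside arrays. Without those 3 arrays its genotype difference on ibuprofen chow turned above 0, at 0.04 ± 0.07.

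Foxq1, a forkhead factor enriched in brain endothelium, measured 8.43, 8.52, 8.50 and 8.49 in wild-type mice on control chow and 8.47, 8.49, 8.49, 8.51 and 8.98 on ibuprofen chow. In APP-PS1 mice it measured 8.58, 8.30, 8.57, 8.50 and 8.46 on control chow and 8.31, 8.59, 8.45, 8.33 and 8.42 on ibuprofen chow. The other 4 arrays of the wild-type ibuprofen group lay between 8.47 and 8.51, below its replicate 5. Foxq1 was -0.17 ± 0.09 in APP-PS1 relative to wild-type mice on ibuprofen chow (adjusted p = 0.228) and -0.07 without that replicate. It was the 1 gene of 30 whose genotype difference on control chow was below 0, at -0.00 ± 0.09. Erg, the ETS factor, differed by 0.06 ± 0.09 and -0.11 ± 0.08 on the 2 diets.

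All 6 surface, secreted and signalling genes that were measured had a higher mean in APP-PS1 mice on control chow (median 0.05) and 4 of 6 on ibuprofen chow (median 0.00). Itm2a, a membrane protein enriched in brain vessels, measured 9.80, 10.27, 9.79 and 9.85 in wild-type mice on control chow and 10.06, 9.83, 9.89, 9.81 and 9.92 on ibuprofen chow. The APP-PS1 arrays read 9.99, 9.92, 10.09, 10.09 and 10.17 on control chow and 10.02, 9.84, 9.91, 10.01 and 10.00 on ibuprofen chow. The highest array was wild-type control replicate 2. Without it, the genotype difference averaged over both diets was 0.15 in place of 0.09 ± 0.06 (adjusted p = 0.693), and the groups overlapped on each diet.

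Egfl7, a protein that endothelial cells secrete into the matrix around new vessels, measured 9.68, 9.64, 9.76 and 9.68 in wild-type mice on control chow and 9.99, 9.60, 9.70, 9.72 and 10.09 on ibuprofen chow. In APP-PS1 mice it measured 9.81, 9.62, 9.69, 9.66 and 9.70 on control chow and 9.60, 9.72, 9.73, 9.70 and 9.62 on ibuprofen chow. Wild-type ibuprofen replicates 5 and 1 were the highest arrays, and the other 17 lay between 9.60 and 9.81. Egfl7 was -0.15 ± 0.08 in APP-PS1 relative to wild-type mice on ibuprofen chow (adjusted p = 0.225) and -0.08 without replicate 5. With the 3 set-aside arrays left out it was -8.07e-05.

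Of the remaining genes, Vwf, the clotting factor stored in endothelial granules, had the largest spread, at 8.84 ± 0.43 (SD, n = 5) in wild-type mice on ibuprofen chow, where replicate 5 reached 9.50. Its genotype difference was 0.06 ± 0.17 on control chow and -0.10 ± 0.16 on ibuprofen chow. Nos3, the endothelial nitric oxide synthase, differed by 0.02 ± 0.08 and 0.00 ± 0.07. Emcn, a sialomucin of capillaries and veins, differed by 0.09 ± 0.09 and 0.07 ± 0.09, and Apold1, an endothelial immediate early gene, by 0.03 ± 0.08 and 0.00 ± 0.08.

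The limits on what could have been missed were set by the spread. Over the 30 genes, the outermost bounds of the 95% intervals for genotype on control chow were -0.28 (Vwf) and 0.53 (Slco1c1), and for ibuprofen in APP-PS1 mice -0.41 (Slco1c1) and 0.36 (Vwf). For genotype on ibuprofen chow they were -0.55 (Mfsd2a) and 0.31 (Slco1c1), and for ibuprofen in wild-type mice -0.24 (Emcn) and 0.57 (Mfsd2a). Every interval of these 4 comparisons therefore stayed between 0.683-fold and 1.48-fold, with no correction for the number of genes.

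Arrays of 1 group differed from each other over the whole set. In wild-type ibuprofen replicate 5, 30 of 30 genes lay above the mean of their own group, where 71.0% of all genes did, by a median of 0.30 and between 0.02 (Itm2a) and 0.67 (Vwf). That array was the highest of all 19 for 23 of 30 genes, or 76.7%, against 40.0% of all genes. Wild-type control replicate 2 had 28 of 30 genes above its group mean, against 50.7% of all genes, by a median of 0.17, with Vwf again the furthest at 0.40. At the other end, wild-type ibuprofen replicate 2 and APP-PS1 control replicate 2 had 0 of 30 above the mean of their groups, against 34.1% and 41.8% of all genes. The mean level over the set ran from 9.27 to 9.52 in the wild-type control arrays, 9.29 to 9.78 in the wild-type ibuprofen arrays, 9.31 to 9.55 in the APP-PS1 control arrays and 9.36 to 9.45 in the APP-PS1 ibuprofen arrays. The 4 ranges overlapped, and the range of the APP-PS1 ibuprofen arrays was the narrowest. Nothing in the labels marks the arrays at the ends of these ranges.

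**Figure D3:**
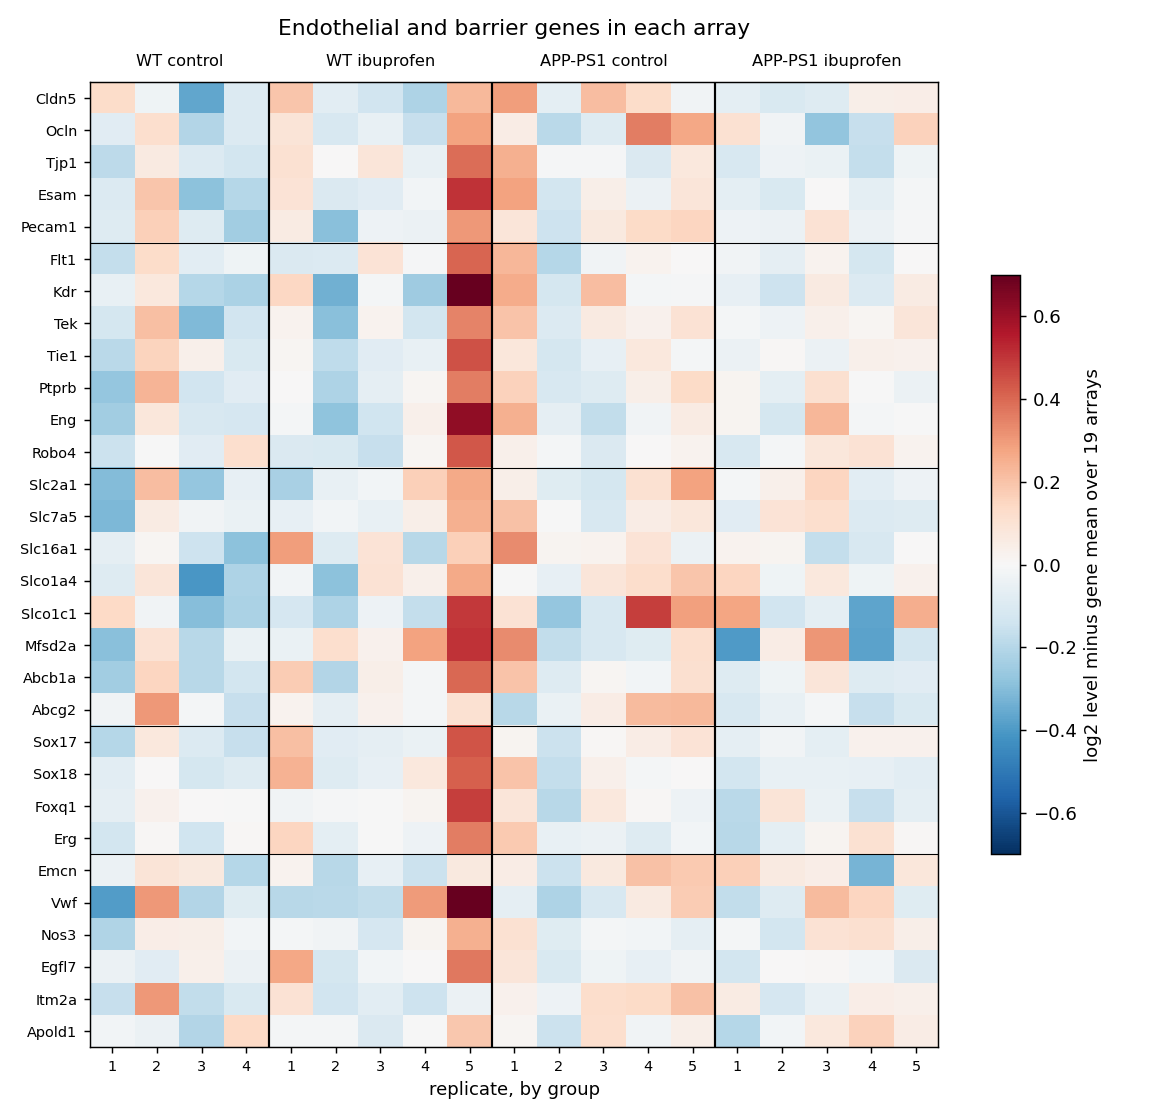
Log2 level of each of the 30 genes in each array minus the mean of that gene over 19 arrays (red above, blue below), with genes in blocks by role and arrays by group and replicate. The column of wild-type ibuprofen replicate 5 is red for nearly all genes and that of wild-type control replicate 2 for most. Those of wild-type control replicates 1, 3 and 4, wild-type ibuprofen replicate 2 and APP-PS1 control replicate 2 are among the columns that are mostly blue.

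Marker lists of neighbouring cell types differed in how they moved with these arrays. The mean of the 11 pericyte and smooth muscle markers, all of them measured, was 9.72 in wild-type ibuprofen replicate 5, and the next highest array was APP-PS1 control replicate 5 at 9.36. In that first array 8 of the 11 markers were at their highest of all 19, against 40.0% of all genes. The same held there for 5 of 13 choroid plexus, 3 of 8 astrocyte and 2 of 9 microglia and macrophage markers. It held for 1 of 10 fibroblast and meningeal, 1 of 11 oligodendrocyte, 1 of 8 neuron and 0 of 3 red blood cell markers. By group the mean ran from 8.93 to 9.33 (wild-type control), 9.00 to 9.72 (wild-type ibuprofen), 9.02 to 9.36 (APP-PS1 control) and 9.03 to 9.33 (APP-PS1 ibuprofen). The mean of the 10 fibroblast and meningeal markers was highest in wild-type control replicate 2, at 9.86, and by group ran from 8.99 to 9.86, 8.83 to 9.69, 8.83 to 9.74 and 8.97 to 9.61 in the same order. Choroid plexus markers, of which 13 of 14 were measured, ran from 7.79 to 9.50, 7.73 to 10.37, 7.96 to 10.49 and 8.10 to 10.21, a wide range within every group. Ttr, its most abundant transcript, was above 10 in all arrays. The part of vessel content, meninges or choroid plexus in the differences of the set was not tested, beyond a fit with the choroid plexus mean as a covariate. In that fit the set's median was 0.07 for genotype on control chow, -0.11 on ibuprofen chow (-0.06 over all genes) and -0.17 for the interaction.

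**Figure D4:**
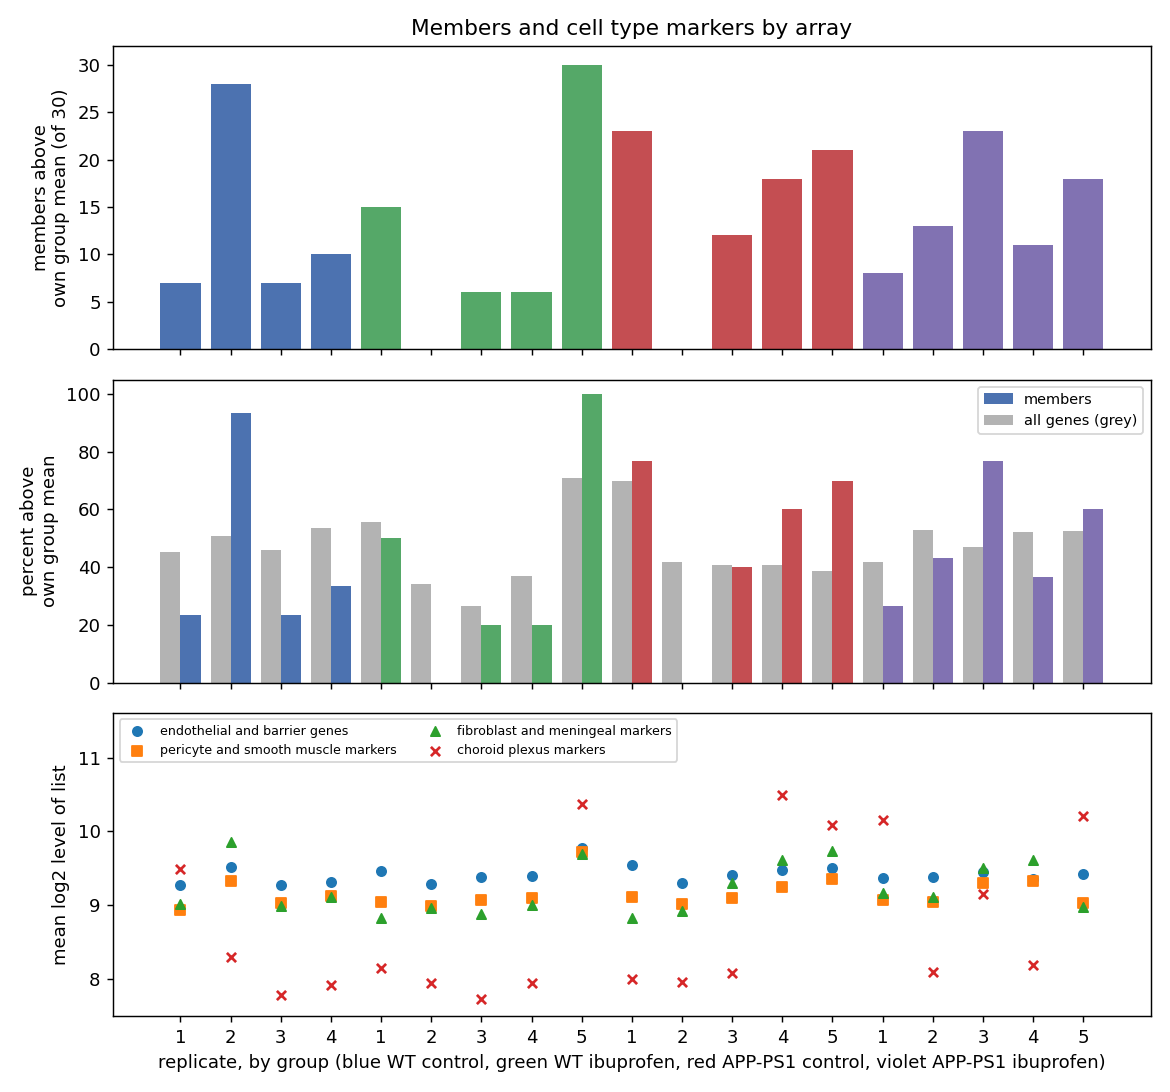
Top, number of the 30 genes above the mean of their own group in each array (bars coloured by group); middle, the same as a percent beside the percent of all genes (grey); bottom, mean log2 level of the set and of 3 marker lists in each array (marks by list). Wild-type ibuprofen replicate 5 has 30 of 30 genes above its group mean and the highest pericyte and smooth muscle mean, 9.72, while choroid plexus markers vary within every group.

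Of the set, 2 genes followed the choroid plexus markers across arrays. A slope on the mean of those 13 markers was fitted for every gene within groups in limma, a test chosen after the values were seen. Slco1c1, which choroid plexus epithelium also expresses, had a slope of 0.24 ± 0.03 (SE) log2 units for each log2 unit of the marker mean (adjusted p = 1.83e-06), and Ocln, a junction gene of epithelia as well as endothelia, had one of 0.14 ± 0.03 (adjusted p = 0.0156). A positive slope passed for 1.99% of all genes and a negative one for 0.00502%. Leaving out wild-type ibuprofen replicate 5 gave 0.23 (adjusted p = 4.46e-05) for Slco1c1 and 0.13 (adjusted p = 0.0973) for Ocln, so the call for Ocln ended, as it did without the 3 set-aside arrays (adjusted p = 0.0738).

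The values of Slco1c1 show the pattern. They were 10.53, 10.36, 10.09 and 10.16 in wild-type mice on control chow and 10.27, 10.17, 10.35, 10.22 and 10.88 on ibuprofen chow. In APP-PS1 mice they were 10.49, 10.12, 10.28, 10.87 and 10.68 on control chow and 10.66, 10.26, 10.32, 10.02 and 10.64 on ibuprofen chow. In each group the highest array, which was replicate 1, 5, 4 and 1 in that order, was also the array with the highest or, in the APP-PS1 ibuprofen group, the second highest choroid plexus mean. The marker means fell into 2 clusters, 12 arrays from 7.73 to 8.29 and 7 from 9.16 to 10.49. Without regard to group, the slope of Slco1c1 was 0.07 ± 0.25 (SE) in the first and 0.38 ± 0.06 in the second, and that of Ocln 0.35 ± 0.18 and 0.45 ± 0.06. For Slco1c1 the relation was thus not detectable within the 12 arrays with the lower marker means. None of the other 28 genes passed, and the next smallest adjusted p was that of Slco1a4, 0.281 for a slope of 0.08 ± 0.03.

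Of 8 lists of other genes of these pathways, none had a gene past the adjusted limma test in any comparison. At an unadjusted p under 0.05 a list held 0 to 4 genes. The 4 were among 17 other endothelial transcription factors for genotype on ibuprofen chow, 2 higher and 2 lower (6.25% and 18.2% of all genes). Beside the counts below, 57.9% of all genes were higher in APP-PS1 mice on control and 37.8% on ibuprofen chow (medians 0.02 and -0.05). The interaction was above 0 in 35.6%. No list count was repeated without wild-type ibuprofen replicate 5. Among 14 genes of the Wnt signalling that maintains the barrier, 12 were higher in APP-PS1 mice on control chow (median 0.08) and 4 on ibuprofen chow (median -0.09), with 1 at an unadjusted p under 0.05 in each. Wnt7a is a ligand that glia and neurons send to the endothelium. On ibuprofen chow it averaged 9.00 ± 0.35 (SD) in the wild-type and 8.59 ± 0.15 (SD) in the APP-PS1 group (n = 5 each). The difference was -0.41 ± 0.12 (adjusted p = 0.123 in limma), with all APP-PS1 arrays below all wild-type arrays, as for 2.06% of all genes. The lowest wild-type array was at 8.79 and the highest APP-PS1 array at 8.76. The wild-type median was 8.86 and its highest array 9.61, and the difference without single arrays was not taken. Tspan12, a co-receptor of the Norrin branch, had an interaction of -0.41 ± 0.13 (adjusted p = 0.208), and Apcdd1, a Wnt inhibitor that marks barrier endothelium, one of -0.26 ± 0.13 (adjusted p = 0.251).

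Of 18 other barrier transporters, 15 were higher in APP-PS1 mice on control chow (median 0.12), against 57.9% of all genes. The interaction was above 0 in 1 (median -0.14), against 35.6% of all genes. Insr, the insulin receptor, averaged 10.32 and 10.48 in the wild-type groups and 10.43 and 10.30 in the APP-PS1 groups, control chow first. Its interaction was -0.29 ± 0.08 (adjusted p = 0.208 in limma). Tfrc, the transferrin receptor that brings iron across the barrier, differed by 0.21 ± 0.07 between genotypes on control chow (adjusted p = 0.768), and Abcb1b, the second P-glycoprotein gene of the mouse, by -0.33 ± 0.13 on ibuprofen chow (adjusted p = 0.156). These genes are also expressed outside the endothelium.

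Among 12 other junction genes, 9 were higher in APP-PS1 mice on each diet (medians 0.08 and 0.10). Cgn, cingulin of the tight junction plaque, differed by 0.25 ± 0.09 on ibuprofen chow (adjusted p = 0.145), while the interactions of Jam3, a junctional adhesion molecule, and Cldn12, another claudin, were -0.28 ± 0.11 and -0.27 ± 0.12. In the VEGF and angiopoietin list of 12, 9 were higher in APP-PS1 mice on control chow (median 0.03) and 5 on ibuprofen chow (median -0.04). Vegfd, a ligand of lymphatic and blood vessels, differed by -0.24 ± 0.11 there, and in wild-type mice the growth factor Pgf and the Tek ligand Angpt2 differed between diets by 0.24 ± 0.13 and -0.16 ± 0.09.

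The Notch list of 10 genes, a pathway of arterial fate, had 6 genes with a higher mean in the APP-PS1 group on control chow, against 2 on ibuprofen chow (medians 0.01 and -0.12), and its ligands Dll1 and Jag2 and its target Hey1 differed by -0.17 ± 0.08, -0.15 ± 0.09 and -0.11 ± 0.06 on ibuprofen chow. Of 8 genes of caveolae and fenestrae, 6 were higher on control chow (median 0.05) and 2 on ibuprofen chow (median -0.04). Ehd4, a membrane-shaping ATPase, had an interaction of -0.41 ± 0.20, and the caveolar coat genes Cavin1 and Cavin3 differed by 0.18 ± 0.13 between genotypes on ibuprofen chow and by 0.11 ± 0.08 between diets in wild-type mice.

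Genes of activated endothelium, 10 measured of 13, were higher in APP-PS1 mice in 7 cases on control chow and 6 on ibuprofen chow (medians 0.02 and 0.03). Vcam1, the adhesion molecule that captures leukocytes, differed by 0.16 ± 0.09 averaged over both diets (adjusted p = 0.685). Sele, E-selectin, differed by -0.28 ± 0.11 between diets in wild-type mice (adjusted p = 0.432) and Ackr1, a chemokine-binding receptor of venules, by 0.12 ± 0.05 in APP-PS1 mice (adjusted p = 0.716). Of 17 other endothelial transcription factors, 9 were higher in APP-PS1 mice on each diet (median 0.01 on both). On ibuprofen chow the forkhead genes Foxl2 and Foxo1 differed by 0.23 ± 0.08 and -0.25 ± 0.09 and Tal1, a factor of blood and vessel precursors, by 0.21 ± 0.08, with adjusted p-values of 0.144 to 0.156 in limma.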

How the data were processed

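RNA of 19 hippocampus samples in 4 groups was measured on Affymetrix arrays. Values were used as the authors deposited them, on a log2 scale with 1 value for a probe set and array. The submitters' processing notes name Partek 6.5 and RMA. The RMA settings were not given in the sources used here. No further normalization and no filter on dim genes was applied. An array annotation of 2016 gave 21789 of 35556 probe sets a single symbol, which made 19938 genes.

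One limma fit (limma 3.58.1, R 4.3.3) held a mean for each group, leaving 15 residual degrees of freedom, and let the prior variance follow intensity. Benjamini-Hochberg adjustment of the two-sided p-values ran over all genes. Errors of differences are limma standard errors. The fit was tested on simulated data. The members and lists were chosen with earlier results of these data known. Genes given in full were the 4 with the smallest p in each comparison and Cldn5, and of each other list up to 3 with the smallest p. The number of arrays limits the precision.

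Alternatives were quantile normalization, centring each array on its median, leaving out the dimmest genes, averaging probe sets, other prior settings, array weights, compared groups alone, a replicate block, 2 marker covariates, and leaving out each array or 3 arrays. Promoters are from RefSeq; Python 3.11.15 with matplotlib 3.10.9 drew the figures. The counts of differences above 0 without single arrays and the slopes on choroid plexus markers were chosen after seeing the data.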

Additional observations from a re-analysis of the deposited data

Results flagged for a closer look

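Of 120 sets of arrays examined, 1 for each gene and group, 7 held an array far from the others of its group, where chance alone marks about 1 in 20. Replicate 5 of the wild-type ibuprofen group was the high array for Slco1c1 (10.88, the next being 10.35) and Foxq1 (8.98, the next being 8.51). Pecam1 was low in APP-PS1 control replicate 2 (8.34, the next being 8.56) and high in APP-PS1 ibuprofen replicate 3 (8.59, the next being 8.48). Erg was high in APP-PS1 control replicate 1 (8.24, the next being 8.03), Emcn low in APP-PS1 ibuprofen replicate 4 (9.25, the next being 9.62) and Itm2a high in wild-type control replicate 2 (10.27, the next being 9.85).

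The ibuprofen difference of Tjp1 differed by genotype in sign, with every APP-PS1 array on ibuprofen below the APP-PS1 control mean and every wild-type array on ibuprofen above the wild-type control mean. The interaction was -0.31 (adjusted p = 0.208 in limma), so it did not pass the adjusted test.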

How the results depend on the processing

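No gene of the set passed an adjusted p of 0.05 in any comparison under any of the 12 alternatives or without any 1 array. Of the unadjusted counts, quantile normalization gave 1 for genotype on ibuprofen chow, 2 for the interaction and 1 for genotype averaged over diets. Array weights gave 7 (6 higher, 1 lower), 2 and 7 there and 1 for ibuprofen in APP-PS1 mice, and medians of -0.0135 for the interaction and -0.0175 for ibuprofen in wild-type mice. Over all genes those medians were -0.0158 and 0.0115. The set's median for genotype on ibuprofen chow turned from -0.05 to 0.06 with array weights, against -0.0086 over all genes. Its median for genotype averaged over diets became 0.07, against -0.00024 over all genes. Compared groups alone gave 1 for ibuprofen in APP-PS1 mice; the interaction and the average over diets need all groups and were not run so. The choroid plexus covariate gave 5 for genotype on ibuprofen chow, 1 for ibuprofen in APP-PS1 mice and 5 in wild-type mice, and the oligodendrocyte covariate 0 for genotype on control chow, 1 for the interaction and 0 for ibuprofen in wild-type mice. Without the 3 set-aside arrays the counts were 0 for genotype on ibuprofen chow, 1 and 0 for ibuprofen by genotype (APP-PS1 first), 1 for the interaction and 3 for genotype averaged over diets, and genes with a difference above 0 were 21, 10, 14, 11 and 24 in that order. The cause was not tested, and the last setting has fewer arrays. Shares of all genes at an unadjusted p under 0.05 were not counted under these alternatives or without 1 array. The unadjusted counts are therefore not read as results about the set.

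Nothing in the labels says what a replicate number marks. Deviations of same-numbered arrays correlated above 0.1 in 17 of 27 pairs (range -0.27 to 0.60), but not in every pair of any 2-group comparison. They did in 0 of 4 for genotype on control chow, 3 of 5 on ibuprofen chow, 3 of 5 for ibuprofen in APP-PS1 and 2 of 4 in wild-type mice. They did in all pairs of wild-type ibuprofen with APP-PS1 control arrays and of wild-type control with APP-PS1 ibuprofen arrays. No 2-group comparison sets these against each other, but they enter the interaction and the genotype average. Whether the numbers mark a shared source was not tested, and the block was kept as an alternative. With the block, the unadjusted count for genotype on control chow was 1 in place of 2, and no other count moved by over 1.5 times. Of the 19 arrays, 11 correlated best with arrays of their own number. How many would do so by chance was not computed.

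Leaving out 1 array gave unadjusted counts of 0 to 9 for genotype on control chow, 0 to 5 on ibuprofen chow, 0 to 1 and 0 to 9 for ibuprofen by genotype (APP-PS1 first), 1 to 8 for the interaction and 0 to 2 for genotype averaged over diets. The medians ran from 0.07 to 0.18, -0.09 to 0.03, -0.10 to -0.04, 0.01 to 0.16, -0.22 to -0.09 and -0.00 to 0.06, and genes above 0, a count chosen after seeing the data, from 24 to 30, 2 to 18, 2 to 10, 17 to 29, 0 to 7 and 15 to 25. Of the 28 values of named genes, Cldn5 changed sign for genotype on ibuprofen chow with quantile normalization (0.0181), array weights (0.0659) and the 3 arrays left out (0.11), and without wild-type ibuprofen replicate 1 (0.01) or 5, within a leave-out range of -0.0899 to 0.0209. It did so for ibuprofen in wild-type mice with array weights (-0.0737), the 3 arrays left out (-0.0513) and without wild-type control replicate 3 (-0.00080), as did Egfl7 for genotype on ibuprofen chow with array weights (0.00079).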
